A study of Sus scrofa with 72 samples.

Results

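Synovial mesenchymal stem cells (SMSCs) from 2 sites of the same pig knee joints were compared at the start of the experiment, before any adipogenic medium was given. The FP cells came from the adipose synovium on the joint side of the infrapatellar fat pad, and the FS cells from the fibrous synovium lining the lateral joint capsule. The comparison rests on the arrays titled for day 0 (D0), which are 7 of the 72 in the series, with 3 FP and 4 FS arrays. They hold 2 FP and 2 FS cultures of Angeln Saddleback (AS), a breed known for fat deposition, and 1 FP and 2 FS cultures of German Landrace (DL), a breed selected for growth. All came from male piglets of 59 days of age without any genetic change, and all cells were in complete culture medium (CCM), a high-glucose medium with fetal bovine serum, at passage 3. The remaining arrays cover days 1, 4, 7 and 14 in CCM and in adipogenic induction medium (AIM).

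Every breed and tissue was represented by a single pool of cells from 3 pigs, and replicates are separate cultures of that pool. P-values therefore measure how far cultures of a pool spread, not how far animals do, and FP and FS pools of a breed came from the same animals. A further array labelled DL FP on day 0, replicate 2, was left out because its label disagrees with the tables of the study. After the mean of each probe set was removed, its median correlation was 0.35 with the 3 other FP arrays of day 0 and 0.83 with the 3 FS arrays of day 1 in CCM. With the 7 day 0 arrays of both tissues it was 0.37. Each of those 7 arrays had a median correlation of 0.65 to 0.74 with the others. The array left out was not compared with FP arrays of day 1, so its tissue cannot be told from these values. DL FP thus rests on 1 array, which is assumed to vary like the others. Medians of the 7 arrays lay between 3.98 and 4.03 on the log2 scale, and the mean of the background control probe sets between 3.13 and 3.36.

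Synovium is a thin tissue with a lining layer of macrophages and fibroblasts, which secrete the lubricants of the joint fluid, over a sublining of fibroblasts, vessels and, over the fat pad, adipocytes. Fibroblast-like cells that adhere to plastic and can form fat, bone or cartilage are grown from both sites. Cells of connective tissue are known to keep in culture the expression of homeobox genes that reflects their place in the body, and they differ in the matrix proteins and growth factors they secrete.

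Of 13 stromal surface markers on the array, 10 were above the background controls on all 7 day 0 arrays and 2 on none. Vimentin (VIM) lay between 13.04 and 13.24 on the 7 arrays, THY1 (CD90) between 10.37 and 10.86, ITGB1 (CD29) between 10.81 and 11.11, ENG (CD105) between 8.41 and 8.90, and CD44 between 7.99 and 9.11. NT5E (CD73), a further surface marker used to define stromal cells, was at 2.55 to 3.06, and it and the leptin receptor LEPR were below background on all 7. Of 9 tested stromal surface genes none passed. At an unadjusted p under 0.05, 2 of the 9 were higher and 1 was lower in FP (against 6.77% of all tested probe sets in either direction). The pan-leukocyte gene PTPRC, the T cell gene CD3E, the B cell gene MS4A1, the epithelial genes EPCAM and CDH1, the endothelial gene KDR and the muscle regulator MYOD1 were below the background controls on all 7 arrays. Other markers of these cell types were not. Above background on all 7 arrays were 7 of 15 macrophage, 11 of 16 lymphocyte, 12 of 17 endothelial, 8 of 13 epithelial and 10 of 15 skeletal muscle markers, among them CD86 at 7.35 to 8.87, CD4 at 6.62 to 7.79 and PECAM1 at 5.60 to 6.73. On every array the median of all probe sets also lay above these controls, at 3.98 to 4.03 against 3.13 to 3.36. The share of all genes above them was not counted. Neither these counts nor that of the stromal markers thus shows that a cell type was present. The array medians of these marker lists overlapped between FP and FS, with 3.29 to 3.88 in FP and 3.37 to 3.70 in FS for the macrophage markers. The part of such cells in the results was not tested. In bulk RNA, fewer cells with a transcript and less transcript per cell cannot be told apart.

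Few probe sets passed between FP and FS cells before induction, which does not show that the others were equal. In limma, 75 of 18335 tested probe sets passed at an adjusted p under 0.01 (0.409% of those tested), 39 higher (0.213%) and 36 lower (0.196%) in FP than in FS. Their differences ran from 0.52 to 1.93 in size on the log2 scale, with a median of 1.20, against a median of 0.13 over all tested probe sets. A difference of at least 1 on the log2 scale was reached by 28 probe sets higher and 22 lower in FP. The passing probe sets stood for 43 named genes, 21 higher and 22 lower in FP, and 4 probe sets without a gene name, all lower. An unadjusted p under 0.05 was reached by 1241 probe sets (6.77%) in both directions together. The 3 FP arrays did not overlap the 4 FS arrays in 70 of the 75, and in 1108 of all tested probe sets (6.04%). The 75 were chosen for their difference on these same arrays, which favours such separation, so that this is a description and no test. Tissue, taken beside breed, accounted for 17.1% of the sum of squares over the 7 arrays, breed beside tissue for 23.6%, their interaction for 13.3% and differences between cultures of a group for 45.0%. The count depends on pooling the spread over the 68 arrays of the fit. With the 7 day 0 arrays alone no probe set passed at 0.01 (1158 had an unadjusted p under 0.05, and 5 an adjusted p under 0.05). All 75 kept their direction there, but the main difference is taken from these same 7 arrays, so that this is no test. With all 72 arrays as labelled 24 passed, 3 of them higher in FP.

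The lower group in FP was led by a homeobox gene. HOXC10, a transcription factor of the HOX family that marks the lumbar body axis and hind limb, was at 3.94 and 4.76 in the AS FP cultures and 4.05 in the DL FP culture, against 5.61 and 6.16 in AS FS and 6.20 and 6.54 in DL FS. All FP arrays were below all FS arrays. The difference was -1.93 (95% interval -2.33 to -1.53), a 3.81-fold lower value in FP, with an adjusted p of 9.1e-08 from limma. The long non-coding RNA LOC106505993, of unknown function, was at 3.51, 3.33 and 3.66 in FP, close to the background controls, against 5.01 and 4.69 in AS FS and 6.01 and 5.81 in DL FS. Its difference of -1.84 (SE 0.18, adjusted p = 3.55e-08) was of the same size. For HOXC10, LOC106505993, ADGRD1 and APBB1IP, and for passing probe sets of ZFPM2, PIR, PAX1 and SPTBN1, the name comes from the tables of the study, and names from there are not counted in the gene lists. An unnamed probe set was below the background controls in all FP arrays and at least 2.63-fold lower there than in FS (adjusted p = 1.24e-07).

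Further transcription factors were divided between both sites. LHX9, a LIM homeobox gene of limb and gonad development, was at 5.60, 5.41 and 5.74 in FP, against 4.80, 4.53, 4.63 and 4.54 in FS, a difference of 1.00 (SE 0.18, adjusted p = 0.00179). PAX1, a paired box gene of the developing skeleton, was higher in FP in 1 of its 2 probe sets (0.96, adjusted p = 0.00029), while the brighter one stood at 0.56 (adjusted p = 0.176). TRPS1, a GATA-type repressor of cartilage development, passed in 1 of 6 probe sets (0.52, adjusted p = 0.0067). On the side of lower values, ZFPM2, a cofactor of GATA factors, was nearly constant in FP at 4.85, 4.81 and 4.84, against 6.15, 6.16, 6.37 and 6.61 in FS (difference -1.49, SE 0.27, adjusted p = 0.00113), and both of its probe sets passed. PRDM8, a zinc finger gene of the PR domain family, was at 7.22, 7.19 and 7.42 in FP, against 8.13, 8.13, 8.70 and 8.41 in FS (difference -1.03, SE 0.14, adjusted p = 1.26e-05). EBF3, of the early B cell factor family, was lower by a smaller amount, with 8.77 to 9.07 in FP against 9.31 to 9.66 in FS, a difference of -0.60 (adjusted p = 0.00895), and 2 of its 4 probe sets passed. MEIS2, a HOX cofactor, passed in its dimmer probe set at -0.78 (adjusted p = 0.00882), and its brighter one lay the other way at 0.30 (adjusted p = 0.966), so that its direction is uncertain.

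Over the 66 tested positional transcription factors with a name from the platform, LHX9 alone passed. Of the 66, 9 were higher and 6 lower in FP at an unadjusted p under 0.05 (against 6.77% of all tested probe sets in either direction). The median difference of the 66 was -0.0048, against 0.04 over all 7446 named genes. Of these genes 0.376% passed (0.228% higher and 0.148% lower in FP). Next to the threshold, and chosen after their values were seen, were BARX1, a homeobox gene of mesenchyme in the head and stomach, at 5.22, 5.33 and 5.47 in FP against 3.75 to 4.55 in FS (difference 1.24, adjusted p = 0.0156) and HOXC13 at -0.74 (adjusted p = 0.0154), with overlapping arrays. EMX2, a homeobox gene of the urogenital tract and limb girdle, was at -0.58 (adjusted p = 0.0331). Other HOX genes of the list lay near 0, such as HOXA5 at -0.0079, HOXA7 at -0.02, HOXB6 at -0.02 and HOXD8 at -0.12, each with an adjusted p of 0.999.

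**Figure D1:**
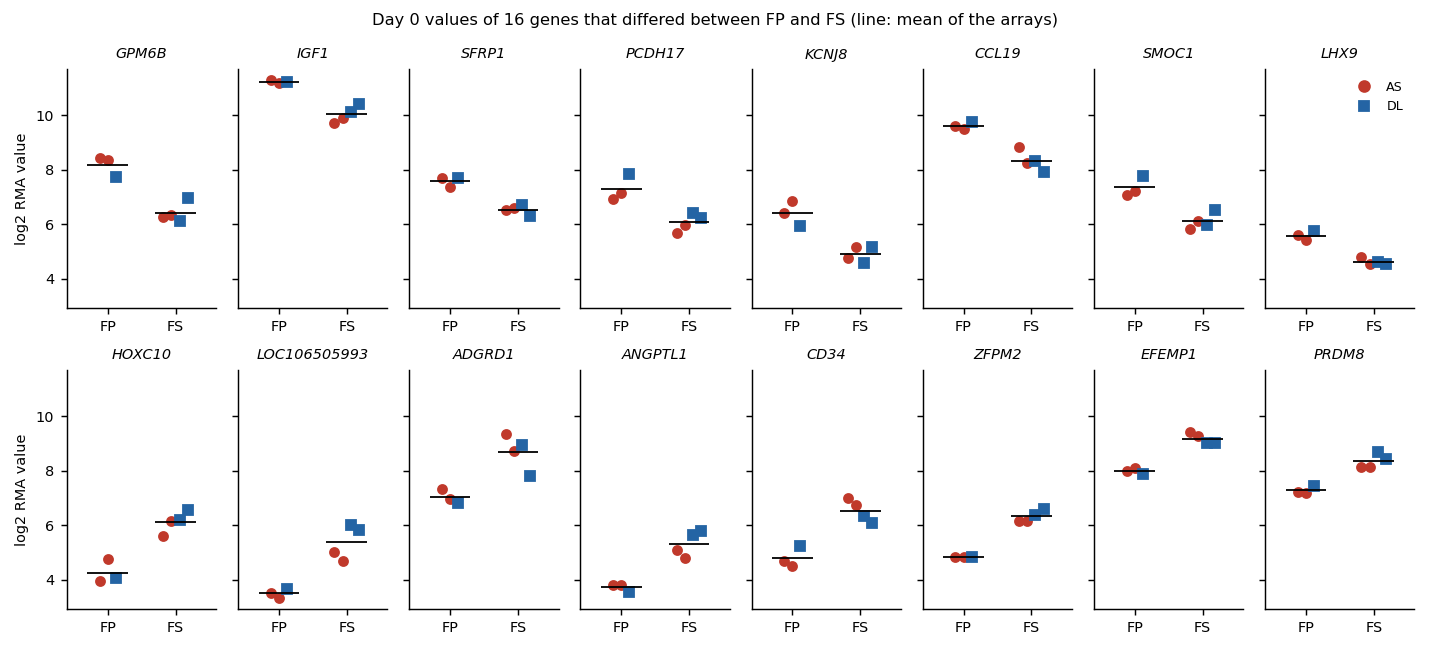
Day 0 values (log2 RMA, vertical axis) of 16 genes on each FP and FS array, with circles for AS, squares for DL and a line at the mean of the arrays. In the upper row FP is above FS, as for GPM6B with 7.74 to 8.44 against 6.11 to 6.95, and in the lower row FP is below FS, as for HOXC10 with 3.94 to 4.76 against 5.61 to 6.54.

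Among genes of the cell surface, passing differences were found in both directions. GPM6B, a membrane glycoprotein of the proteolipid family best known from nerve cells and osteoblasts, was at 8.44 and 8.34 in AS FP and 7.74 in DL FP, against 6.28 and 6.33 in AS FS and 6.11 and 6.95 in DL FS. No FS array reached the lowest FP array. The difference was 1.66 (95% interval 1.14 to 2.18), or 3.15-fold, with an adjusted p of 0.000127, and all 8 probe sets of the gene passed, at 0.89 to 1.78. PCDH17, a protocadherin of cell adhesion, was at 6.93, 7.14 and 7.86 in FP, against 5.67, 5.96, 6.40 and 6.22 in FS (difference 1.38, SE 0.27, adjusted p = 0.00374). Of its 3 probe sets 2 passed. ANPEP (CD13), a surface peptidase widely used as a stromal cell marker, was higher by 0.53 (adjusted p = 0.0088) in its brightest probe set. Its other probe sets lay between 0.31 and 0.48 and did not pass.

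CD34, a sialomucin of blood and vessel progenitors that is also carried by sublining fibroblasts, showed the opposite direction. It was at 4.68 and 4.50 in AS FP and 5.25 in DL FP, against 6.98 and 6.75 in AS FS and 6.32 and 6.08 in DL FS. Every FP value was below every FS value, and the gap was 2.27 in AS and 0.94 in DL. The overall difference was -1.61 (95% interval -1.99 to -1.22, adjusted p = 1.33e-06). ADGRD1, an adhesion receptor coupled to G proteins, was at 7.34, 6.97 and 6.82 in FP, against 9.33, 8.72, 8.94 and 7.79 in FS (difference -1.72, SE 0.34, adjusted p = 0.00349), and both of its probe sets passed. ATRNL1, an attractin-like membrane protein, passed in 2 of 4 probe sets, both dim and with overlapping arrays. In these 2 the difference was -0.20 and -0.23 in AS, and -2.08 and -2.16 in DL with its single FP culture.

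Growth factors and their antagonists were found in both directions. The insulin-like growth factors (IGFs), which act through a shared receptor on growth and survival, were divided. IGF1 was at 11.29 and 11.18 in AS FP and 11.22 in DL FP, against 9.70 and 9.89 in AS FS and 10.13 and 10.41 in DL FS. The FP arrays were close to each other and above all FS arrays. The difference was 1.20 (SE 0.21), a 2.30-fold higher value in FP (adjusted p = 0.000774). Of 7 probe sets 3 passed, 6 lay between 1.20 and 1.46, and the dimmest was at -0.23. IGF2, the fetal form of the growth factor, is given by its brightest probe set, which lay near the top of the scale with 10.97, 11.39 and 11.68 in FP, against 11.91, 11.94, 11.94 and 12.15 in FS (difference -0.55, adjusted p = 0.0628). Of its 13 probe sets 4 passed, all lower in FP by 0.87 to 1.09, and all 13 had a negative difference. In the largest of these, IGF2 was at 8.72, 9.78 and 9.50 in FP, against 10.06, 10.45, 10.46 and 10.92 in FS (adjusted p = 0.00331).

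**Figure D2:**
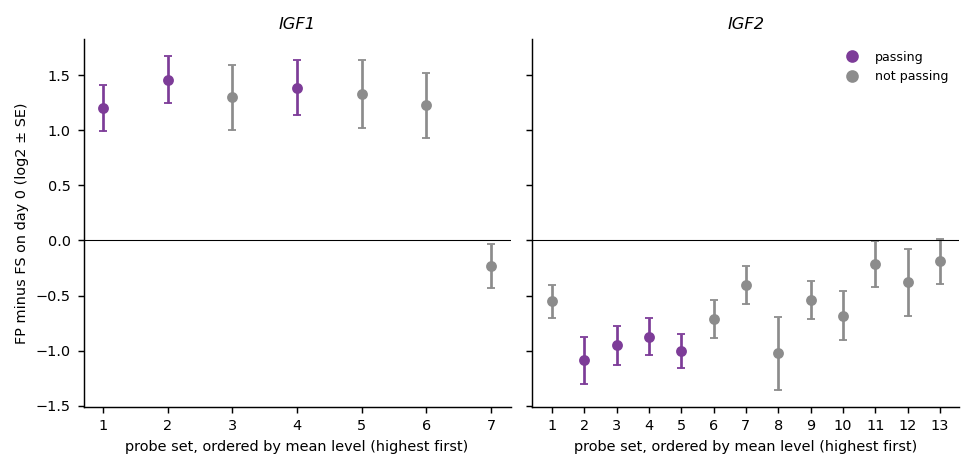
FP minus FS on day 0 (log2, with its standard error) for every tested probe set of IGF1 (7) and IGF2 (13), ordered from the brightest to the dimmest, coloured where the adjusted p is under 0.01. Of the IGF1 probe sets 6 lie between 1.20 and 1.46, and all IGF2 probe sets lie below 0.

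Within the 15 tested genes of the IGF system, IGF1 alone passed when each gene was given by its brightest probe set, and the median was 0.09. At an unadjusted p under 0.05, 4 of the 15 were higher and 2 lower in FP (against 6.77% of all tested probe sets in either direction). The binding proteins, which hold IGFs in the extracellular space, had no common direction. IGFBP7 was at 0.77 (adjusted p = 0.0154), IGFBP4 was at 0.58 (adjusted p = 0.382) and IGFBP5 at -0.57 (adjusted p = 0.22). The receptors IGF1R (0.16) and IGF2R (0.00) were near 0.

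Among other growth signals, SFRP1, a secreted antagonist of Wnt ligands, was at 7.70, 7.36 and 7.68 in FP, against 6.51, 6.60, 6.69 and 6.32 in FS (difference 1.08, SE 0.18, adjusted p = 0.000355), and 3 of 4 probe sets passed. SMOC1, a secreted matrix protein known as an antagonist of bone morphogenetic proteins, was at 7.09, 7.22 and 7.75 in FP, against 5.82, 6.13, 5.99 and 6.54 in FS (difference 1.33, SE 0.20, adjusted p = 7.31e-05). FGFR2, a receptor of fibroblast growth factors, had a positive difference in all 10 of its probe sets, at 0.46 to 0.96, and 2 passed, the brightest at 0.95 (adjusted p = 0.00627). EREG, a ligand of the epidermal growth factor receptor, owed its difference of 1.39 (adjusted p = 0.00231) to the DL FP culture, with 6.05 there, 4.18 and 4.09 in AS FP, and 3.38 to 4.13 in FS. ANGPTL1, a secreted relative of the angiopoietins, was at 3.82, 3.79 and 3.56 in FP, against 5.07, 4.80, 5.65 and 5.78 in FS. It differed by -1.64 (SE 0.20, adjusted p = 3.18e-06). Together 2 of the 42 tested growth factors and receptors were higher, 1 was lower and 39 did not pass, where 0.228% of all named genes were higher and 0.148% lower, and their median was 0.05.

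CCL19, the chemokine that draws lymphocytes and dendritic cells through its receptor CCR7, was at 9.61, 9.50 and 9.75 in FP, against 8.82, 8.24, 8.31 and 7.90 in FS (difference 1.34, SE 0.28, adjusted p = 0.00882). It was the only one of 52 tested cytokines and chemokines that passed (against 0.376% of all named genes), and their median was 0.06. An unadjusted p under 0.05 was reached by 4 higher and 4 lower of the 52 (against 6.77% of all tested probe sets). IL1RAP, the accessory chain of the interleukin 1 receptor, was higher by 0.66 (adjusted p = 0.0057) in its brightest probe set of 5, and the others did not pass.

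Among axon guidance genes, which steer nerve growth and the movement of other cells, NRP1, a co-receptor of semaphorins and vascular growth factor, was higher by 0.59 (9.35, 9.19 and 9.03 in FP, against 8.81, 8.54, 8.55 and 8.34 in FS, adjusted p = 0.00212). Its 6 probe sets lay between 0.41 and 0.78, and 1 passed. SLIT3, a secreted guidance cue, was lower by 0.98 in FP (adjusted p = 0.00705) and differed strongly between breeds, with 7.08 and 6.77 in AS FP and 5.24 in DL FP, against 7.81 and 7.32 in AS FS and 6.54 and 6.54 in DL FS. The lower value in FP was seen within each breed, although the groups overlapped. The other 47 of 49 tested guidance genes did not pass, where 0.376% of all named genes passed, and the list median was -0.02. An unadjusted p under 0.05 was reached by 4 higher and 6 lower of the 49 (against 6.77% of all tested probe sets). Of 37 tested genes at the core of the PI3K-Akt pathway, which carries growth factor signals, none passed. With the smallest p, PIK3R1, its regulatory subunit, was at 10.01 and 10.19 in AS FP and 9.94 in DL FP, against 8.98 and 9.21 in AS FS and 9.68 and 10.16 in DL FS (difference 0.52, adjusted p = 0.076).

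Genes of elastic fibres, which give tissue its recoil, lay mostly below 0. EFEMP1 (fibulin 3), a glycoprotein of elastic tissue and basement membranes, was at 7.97, 8.08 and 7.88 in FP, against 9.41, 9.27, 9.01 and 9.01 in FS, a difference of -1.21 (SE 0.24, adjusted p = 0.00345). LOXL2, an enzyme that cross-links collagen and elastin, was higher in FP by 0.62 (adjusted p = 0.00785) with overlapping arrays. Of the 17 tested genes these 2 passed, against 0.376% of all named genes. Below 0 lay 13 of the 17, while 59.3% of all named genes lay above 0. All FP arrays were below all FS arrays in 6 of the 17, where 6.04% of all tested probe sets did not overlap in either direction. At an unadjusted p under 0.05, 3 were higher and 5 lower (against 6.77% of all tested probe sets), and the median was -0.29 against 0.04 over all named genes. FBLN1 (fibulin 1), singled out after its values were seen, was at 6.00, 6.07 and 6.22 in FP, against 7.12 to 7.93 in FS (difference -1.25, adjusted p = 0.0155). Without each array in turn the median of this list lay between -0.39 and -0.19.

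Other matrix genes showed less. ADAMTS9, a metalloproteinase that cleaves proteoglycans, was higher in FP, at 7.49, 7.23 and 7.27 against 6.54, 6.31, 6.55 and 6.42 in FS (difference 0.86, SE 0.14, adjusted p = 0.000193). Of its 2 probe sets 1 passed. It was the only passing gene among 40 matrix proteases and inhibitors (median 0.02), where 0.376% of all named genes passed. An unadjusted p under 0.05 was reached by 5 higher and 1 lower of the 40. No gene passed among 29 collagens (median 0.15), 13 small leucine-rich proteoglycans (median -0.19) or 16 genes of the basement membrane (median 0.03). Of the collagens, 5 were higher and 0 lower in FP at an unadjusted p under 0.05 (against 6.77% of all tested probe sets in either direction). The fibril collagen COL11A1 was at 6.81, 6.39 and 5.54 in FP, against 5.37, 4.45, 5.54 and 4.92 in FS (adjusted p = 0.11).

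**Figure D3:**
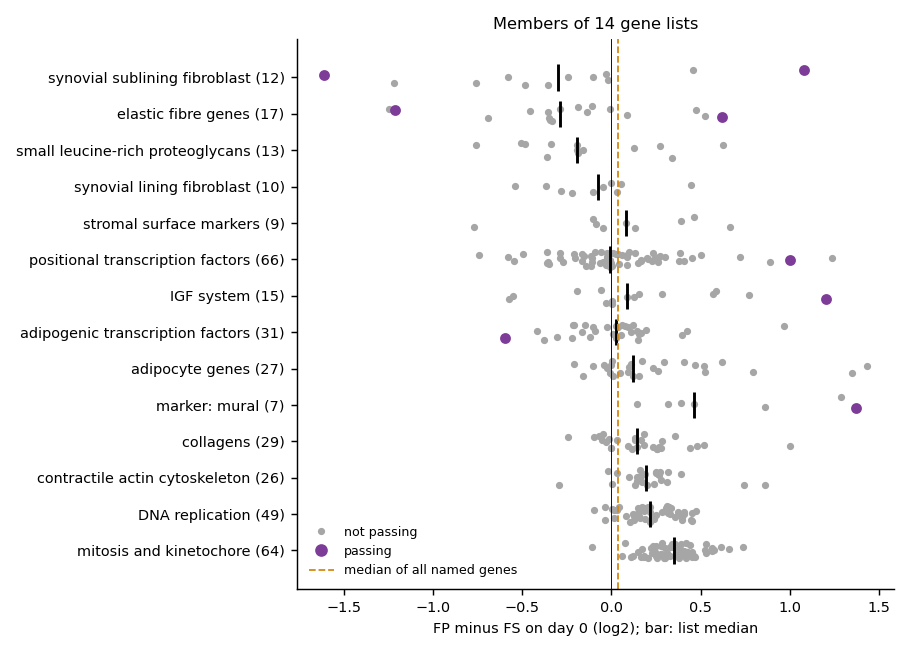
FP minus FS on day 0 (log2, horizontal axis) for each tested gene of 14 lists, with the number tested in brackets, a bar at the list median and purple points where the adjusted p is under 0.01. The dashed line marks the median of all named genes, 0.04, and the list medians run from -0.30 in the sublining fibroblast genes to 0.47 in the mural cell markers.

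Marker genes of mural cells, the pericytes and smooth muscle cells of the vessel wall, had positive differences. KCNJ8, the pore of a potassium channel of pericytes and smooth muscle, was at 6.42 and 6.86 in AS FP and 5.92 in DL FP, against 4.77 and 5.17 in AS FS and 4.56 and 5.14 in DL FS (difference 1.37, SE 0.23, adjusted p = 0.000583). Of its 2 probe sets 1 passed. ABCC9, the regulatory subunit of that channel and the neighbouring gene in the pig annotation, was named after its values were seen. It was at 6.55 and 7.19 in AS FP and 6.11 in DL FP, against 4.21 and 5.10 in AS FS and 5.15 and 6.37 in DL FS, and its difference of 1.29 did not pass (adjusted p = 0.0196). All 7 tested mural cell markers had a positive difference, where 59.3% of all named genes did. Of these 7 markers 1 passed (against 0.376% of all named genes), and their median was 0.47. An unadjusted p under 0.05 was reached by 4 of the 7 (against 6.77% of all tested probe sets). Over these 7 the array medians were 6.42, 6.45 and 5.92 in FP, against 4.88, 5.17, 5.12 and 5.32 in FS. Of 11 such markers on the array, RGS5, RGS4 and HIGD1B, pericyte markers of other species, were below the background controls on all 7 arrays. Without the DL FP culture the median was 0.13 with 6 of 7 above 0. The part of mural cells in the result was not tested. DMD (dystrophin), the link between the cytoskeleton and the matrix in muscle, was higher in FP in 5 of 7 probe sets, at 1.03 to 1.61, and its brightest missed the threshold at 1.08 (adjusted p = 0.011). In 2 of the passing sets FS was not above the background controls, and DMD was at least 1.94-fold and 1.48-fold higher in FP there.

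Lining and sublining fibroblast genes were followed as a further check of the tissue of origin. CD34 and SFRP1, described above, passed among the 12 sublining genes (against 0.376% of all named genes), in opposite directions. An unadjusted p under 0.05 was reached by 1 higher and 3 lower of the 12 (against 6.77% of all tested probe sets in either direction). The list median was -0.30, and 10 of the 12 lay below 0, where 59.3% of all named genes lay above 0. Among the 10 were PI16 at -1.22 (adjusted p = 0.314) and OGN at -0.76 (adjusted p = 0.231). Without the DL FP culture, that is in AS alone, this median was -0.06. None of 10 lining genes passed, none had an unadjusted p under 0.05, and the lubricin gene PRG4 was at -0.22.

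Among the genes of mature fat cells none passed at this stage, and among the transcription factors of fat cell formation 1 did. PPARG, the master regulator of fat cells, was at 6.10 and 6.21 in AS FP and 6.30 in DL FP, against 5.25 and 5.15 in AS FS and 5.01 and 5.65 in DL FS. The groups did not overlap, but the difference of 0.97 (95% interval 0.46 to 1.48) missed the threshold with an adjusted p of 0.0504. Its mean difference over the later days in CCM was 1.07 (adjusted p = 1.16e-07 from limma). CEBPA, a further regulator of fat cells, differed by 0.19 (95% interval -0.16 to 0.55) and CEBPB by 0.16, both with an adjusted p of 0.999. FABP4, a fatty acid carrier, was at 5.15, 5.38 and 6.52 in FP, against 4.99, 3.64, 5.01 and 4.14 in FS, with a wide interval of 0.24 to 2.63 and an adjusted p of 0.516. Of 27 tested adipocyte genes 0 passed. At an unadjusted p under 0.05, 4 were higher and 0 lower in FP (against 6.77% of all tested probe sets in either direction). Of the 27, 21 lay above 0 (against 59.3% of all named genes), and the median was 0.12. Of 11 adipocyte markers on the array, 7 were above the background controls on all 7 arrays, among them ADIPOQ at 5.41 to 6.87. The median of all probe sets was above these controls too. Leptin (LEP) was the only 1 below these controls on all 7 arrays. Of 31 adipogenic transcription factors, EBF3 was the only one to pass (against 0.376% of all named genes), lower in FP. An unadjusted p under 0.05 was reached by 1 higher and 4 lower of the 31. None of the 17 tested genes named in the text of the study passed. At an unadjusted p under 0.05, 4 of the 17 were higher and 1 was lower in FP (against 6.77% of all tested probe sets in either direction).

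Genes of cell division were above 0 as a group without passing singly. Of 64 mitosis genes 63 had a positive difference (against 59.3% of all named genes), 0 passed, and the median difference was 0.35. At an unadjusted p under 0.05, 16 of the 64 were higher and 0 lower in FP (against 6.77% of all tested probe sets in either direction). The median over these genes was 6.42 and 6.00 in AS FP and 6.41 in DL FP, against 6.45 and 6.16 in AS FS and 6.00 and 5.27 in DL FS. DL FS replicate 2 had the lowest value, and the other 6 arrays of both sites overlapped. Without DL FS replicate 2 the median was 0.19, and with AS alone it was -0.05, with 20 of 64 above 0. DNA replication genes had the same pattern, with 46 of 49 above 0, a median of 0.21 and 0 passing, and a median of -0.09 in AS alone. Over the 47 lists, 34 held no passing gene. In the 37 lists with 10 or more tested genes, medians ran from -0.30 to 0.35.

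Several passing genes belong to none of these lists. TRPA1, an ion channel for irritants and cold, was dim at 3.89, 4.23 and 4.01 in FP, and below the background controls in FS. It was at least 1.70-fold higher in FP (adjusted p = 7.88e-05). MYO1D, an unconventional myosin, passed in 1 of 3 probe sets (1.17, adjusted p = 8.56e-06), and its brightest was at 1.37 (adjusted p = 0.0154). The probe sets of LGALS13, a galectin known from the human placenta, disagreed, with 0.12 in the brightest (adjusted p = 0.999) and 1.50 in the dimmest (adjusted p = 0.00021). In the dimmest the DL FP culture was at 6.05, against 4.86 and 4.51 in AS FP and 3.41 to 4.33 in FS. PIR (pirin), a nuclear iron-binding protein, was at 5.80, 5.68 and 6.76 in FP, against 7.70, 7.08, 8.28 and 7.91 in FS (difference -1.50, SE 0.23, adjusted p = 0.000158), and both of its probe sets passed. APBB1IP, an adaptor in integrin activation, was at 5.42, 5.75 and 5.91 in FP, against 6.64, 6.39, 7.29 and 7.21 in FS (difference -1.14, adjusted p = 9.15e-06). MPPED2, a metallophosphoesterase, passed in 1 of 6 probe sets (-1.36, adjusted p = 0.0029), all of which had FP below FS. Also lower in FP, and outside the rule for named genes, were ELMO1 of cell engulfment (-0.92), the splicing factor NOVA1 (-0.83, in 1 of 4 probe sets), PDZD8 of membrane contact sites (-0.70), NHSL1 (-0.66 and -0.77 in 2 of 3 probe sets) and the spectrin SPTBN1 (-0.57 and -0.58 in 2 of 7 probe sets). The dimmer probe set of ELMO1 was at -0.40 and did not pass.

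All 75 passing probe sets had the same sign in AS and DL, but they were chosen on the mean of both breeds in these arrays, which favours equal signs, so that this is a description and no test. In AS alone 31 of them passed, and in DL, with its single FP array, 12. The difference between the breeds was itself tested, and no probe set passed (965 of 18335, or 5.26%, had an unadjusted p under 0.05, and the smallest adjusted p was 0.539). The widest gap between breeds among the named genes was in EREG, with 0.38 in AS and 2.40 in DL, and CD34 was at -2.27 in AS and -0.94 in DL. After adjustment over all probe sets neither passed (adjusted p = 0.539 and 0.785 from limma).

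**Figure D4:**
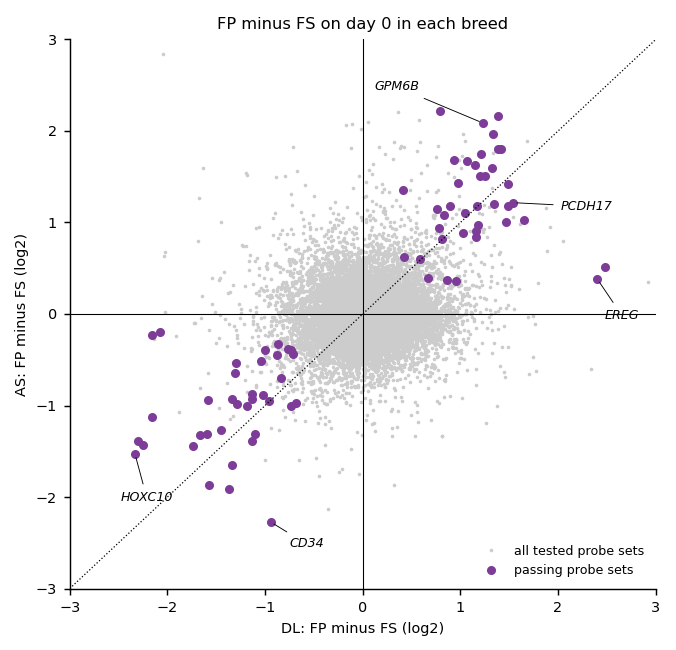
FP minus FS on day 0 (log2) in AS (vertical axis) against DL (horizontal axis), for all tested probe sets in grey and the 75 passing ones in purple, with a dotted line where both are equal. All 75 lie in the quadrants of equal sign, with EREG higher mainly in DL and CD34 lower mainly in AS.

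The calls were followed with each culture left out. When each of the 7 arrays was left out in turn, between 36 and 69 probe sets passed, with 36 without AS FP replicate 1, 43 without the DL FP culture, 47 without DL FS replicate 2 and 49 without AS FS replicate 2. Of the 27 named genes that passed by their brightest probe set, 11 passed in all 7 fits and 16 did not. The 11 were GPM6B, IGF1, KCNJ8, TRPA1 and ADAMTS9, higher in FP, and HOXC10, LOC106505993, CD34, PIR, APBB1IP and PRDM8, lower. SFRP1, SMOC1, ANGPTL1 and ZFPM2 missed the threshold only without the DL FP culture (adjusted p = 0.0284, 0.0142, 0.0252 and 0.0656), where AS alone was left. EREG, LHX9, LOXL2 and NRP1 each passed in 3 of 7 fits, ADGRD1 in 2, PCDH17, CCL19, FGFR2, EFEMP1 and SLIT3 in 1, and EBF3 in none, with the highest adjusted p at 1 for EREG and 0.914 for EBF3 without the DL FP culture. For the rest of this group the highest adjusted p lay between 0.0252 for EFEMP1 and 0.775 for LOXL2.

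The same pools were followed in CCM without induction. The day 0 differences do not use the values of these arrays, but their spread entered the fit that called the 75 probe sets. All 75 probe sets had the day 0 direction in the mean of days 1 to 14, and 73 passed there, which is 97.3% of the day 0 list and 16.9% of the 432 probe sets (2.36% of those tested) that passed in that mean. By day, 75, 75, 75 and 73 of the 75 kept the direction on days 1, 4, 7 and 14, and 24, 44, 18 and 28 passed. Among all tested probe sets, 32, 85, 36 and 95 passed in CCM on these days. The median difference of the 75, turned to the day 0 direction, was 1.20 on day 0, where the probe sets were chosen. It was 0.76, 0.81, 0.67 and 0.60 on the later days. The difference on day 0 was tested against that in later CCM, and no probe set passed (592, or 3.23%, at an unadjusted p under 0.05). The HOXC10 difference was -1.93 on day 0 and -1.13, -2.02, -1.71 and -1.52 on the later days, and that of SMOC1 was 1.33 and then 1.40, 1.67, 1.66 and 1.53. IGF1 was at 1.20 on day 0 and at 1.46, 0.73, 0.48 and 0.15 on days 1 to 14, and GPM6B at 1.66 and then 1.73, 1.18, 0.69 and 0.54.

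In AIM, 73, 66, 59 and 53 of the 75 probe sets kept the direction on days 1, 4, 7 and 14. Of these, 20, 16, 11 and 9 passed, and none passed in the opposite direction. Among all tested probe sets, 56, 134, 59 and 107 passed between FP and FS in AIM on these days, against 75 on day 0. The median difference of the 75, which were chosen on day 0, was 0.67, 0.42, 0.32 and 0.22. The homeobox gene HOXC10 stayed lower in FP at -1.29, -0.97, -1.30 and -1.36, passing on all 4 days, as did LOC106505993 at -1.79, -2.08, -1.87 and -1.73. CD34 was at -1.33 on day 1 and at -0.25, -0.07 and 0.07 on days 4 to 14, and GPM6B at 0.99, 0.10, -0.26 and -0.15. IGF1 was at 0.71 on day 1 and at -0.07, -0.11 and -0.15 later. Whether the differences in AIM were smaller than on day 0 was not tested.

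**Figure D5:**
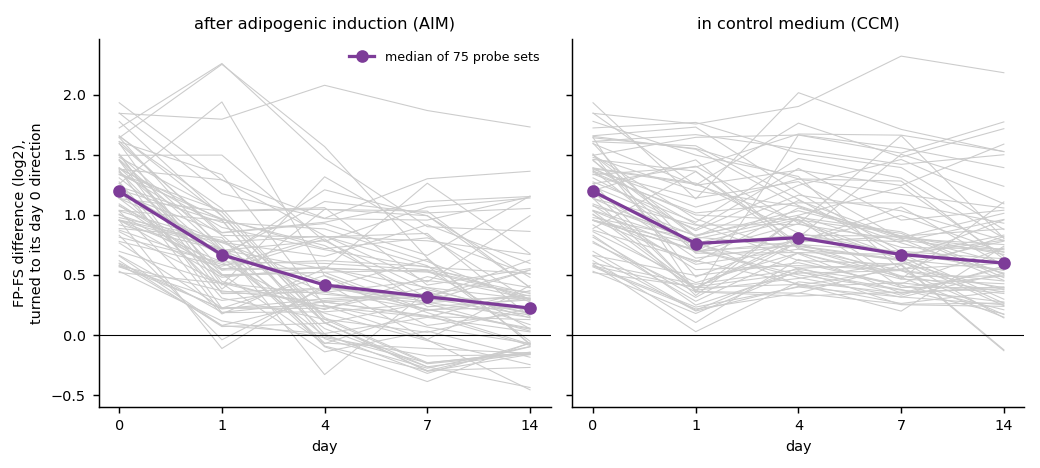
FP-FS difference (log2, turned to its day 0 direction) of the 75 probe sets that passed on day 0, by day in AIM (left) and in CCM (right), with a grey line for each probe set and their median in purple. From the shared day 0 value of 1.20, where the probe sets were chosen, the median is 0.22 on day 14 in AIM and 0.60 on day 14 in CCM. Among all tested probe sets 107 passed on day 14 in AIM and 95 in CCM.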

How the data were processed

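RNA of each culture was hybridized to a porcine Snowball array. The authors corrected the background, normalized and summarized the probe signals with RMA in Expression Console, after scanning with GCOS 1.1.1, and deposited log2 values of 47845 probe sets. No value was rescaled here. Probe sets were tested where the SD over the arrays exceeded 0.25 and the value exceeded the array median on at least 8 arrays, which left 18335. The platform annotation names 26426 probe sets, of which 560 were updated to current RefSeq symbols (Sscrofa11.1) and 121 in conflict with the tables of the study were dropped. A further 1028 probe sets were named from those tables and used for single genes only, not in lists.

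In R 4.3.3, limma 3.58.1 fitted the 36 group means over 68 arrays, treating each culture line as a random block (duplicateCorrelation with statmod 1.5.0, correlation 0.0258), followed by eBayes. The spread is thus estimated over all groups, with 32 residual degrees of freedom. Left out were 4 arrays whose labels disagree with the tables of the study, 1 of them from day 0. FP minus FS was averaged over both breeds with equal weight, and adjusted p-values (Benjamini-Hochberg) under 0.01 passed. Gene names in the text are the 15 largest passing differences in each direction with equal sign in both breeds, up to 3 passing members of each list or the 2 with the smallest p, and the genes the study names. Outside this rule, marker genes were named as checks of cell type, and ABCC9, ANPEP, BARX1, ELMO1, EMX2, FBLN1, HOXA5, HOXA7, HOXB6, HOXC13, HOXD8, IGF1R, IGF2R, IGFBP4, IGFBP5, IGFBP7, IL1RAP, MEIS2, NHSL1, NOVA1, PDZD8, PI16, PRG4 and SPTBN1 were chosen after their values were seen. Where several probe sets match a gene, its value is that of the brightest, the one of highest mean level. A group counts as not above background where all its arrays are at or below the mean of the 69 background control probe sets, and the fold is then a lower bound against these controls. The members and lists were chosen with earlier results of these data known. On simulated data of 18335 probe sets, 68% of 100 changes of log2 1 were recovered in this comparison. Of 100 changes of log2 2, 98% were recovered, and 0 unchanged probe sets passed. Simulated data hold only the spread put into them, so these values do not measure false calls on the real arrays. Tables were made in Python 3.11.15 with pandas 2.3.3 and numpy 2.4.6. Sequences were not used, and 1 named gene that is part of the counts is not reported here.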

Additional observations from a re-analysis of the deposited data

Results flagged for a closer look

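In the 4 FS cultures of day 0, 4 of 114 named genes had 1 array far from the other 3. About 1 in 20 such groups is set apart in this way by chance. IGF2 was at 12.15 in DL FS replicate 2, against 11.91 to 11.94 in the others. ELOVL4, a fatty acid elongase, was at 6.28 in AS FS replicate 2, against 6.70 to 6.72. CEBPB was at 8.95 in DL FS replicate 1, against 8.57 to 8.60, and STAT3, a signal transducer of cytokines, at 9.78 in DL FS replicate 2, against 9.47 to 9.52.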

How the results depend on the processing

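For FP against FS on day 0, 75 probe sets passed, 39 higher and 36 lower in FP. With the 72 arrays as labelled 24 passed (3 higher, 21 lower), with the 7 day 0 arrays alone 0 passed (0 higher, 0 lower), at an adjusted p under 0.05 165 passed (for FP against FS on day 0, higher in FP 88, and for FP against FS on day 0, lower in FP 77), and with probe sets of a gene averaged 45 passed (15 higher). AS alone gave 43 (14 lower) and DL alone 13 (3 higher, 10 lower). Without each array in turn the count ranged from 36 to 69, higher from 21 to 37 and lower from 14 to 33. Counts with CCM arrays only, centring, quantile normalization, no filter, a stricter filter, no line block, or trend and robust estimates ran from 60 to 90. All 75 kept their sign in every setting in which they were tested. These settings reuse all or part of the day 0 arrays on which the 75 were chosen, so that this is a description and no test. The tests of breed against tissue and of day 0 against later CCM gave 0 in all settings in which they could be made. The former cannot be made without the DL FP culture, nor the latter with the day 0 arrays alone.

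Replicate numbers 1 and 2 are shared by groups, and their deviations correlated at 0.24 to 0.32 between the 3 complete day 0 groups, but nothing in the labels says that a number marks a shared batch. With the replicate block 87 passed, 74 of them among the 75, and no direction changed.

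Single genes changed sign only where they did not pass by their brightest probe set. With the arrays as labelled these were PLK3 (-0.119), DUSP5 (-0.209), MBP (-0.0346), CEBPB (-0.102), GPX4 (-0.0318) and STAT3 (-0.130). In AS alone they were PDPN (0.0977), ACTG2 (-0.0242), TNNT3 (0.0334), GPX4 (-0.0214) and THRB (0.376), and in DL alone LGALS13 (-0.148), EYA1 (-0.0640), CIDEC (-0.0187), ALAS2 (-0.199), CEBPB (-0.0028), STAT3 (-0.0229) and JAK2 (0.0190). With the day 0 arrays alone THRB was at 0.0092, and with averaged probe sets NES was at -0.0164, CIDEC at -0.0935 and JAK2 at 0.0222. Without each array in turn, LGALS13 ranged from -0.106 to 0.387, JAK2 from -0.115 to 0.0448, PDPN from -0.455 to 0.0977, ACTG2 from -0.0242 to 1.28, TNNT3 from -0.475 to 0.0334, GPX4 from -0.0214 to 0.137, THRB from -0.164 to 0.376 and STAT3 from -0.0185 to 0.106. The causes were not tested. The number of arrays limits the precision.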
